A study of Drosophila melanogaster with 20 samples.

Results

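The scaffolds 3LHet and 3RHet hold assembled pericentric heterochromatin assigned to the arms of chromosome 3 in the dm3 assembly of *Drosophila melanogaster*, apart from any that the arm sequences themselves include. They were examined in full: every window that the deposited salivary gland profiles place on either scaffold was a member, which gave 976 windows with a value for at least 1 mark. The H3K27me3 profiles list 974 of them (498 on 3LHet and 476 on 3RHet) out of 27631 windows genome-wide, and the H3K27me2 profiles list 967 (494 and 473) out of 27611. Each window spans 50 kb and the next one starts 5 kb further on, so neighbours share 45 kb, and a window is named here by its centre in dm3. The centres run from 25000 to 2525000 on 3LHet and from 25000 to 2490000 on 3RHet.

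The study asked whether the SUUR protein affects H3K27 methylation in polytene chromosomes of salivary glands. Glands came from 3rd instar larvae raised at 23 °C, with 20 pairs of glands as the starting material per the labels (the methods give another number), and 2 genotypes were compared: the *y,w* strain (alleles of *yellow* and *white*), which served as wild type, and *SuUR* mutants, whose allele the labels do not name. Chromatin was precipitated with an antibody to H3K27me3 (Cell Signaling Technology) or to H3K27me2 (Millipore), and sequenced next to input DNA of the same genotype. There were 4 profiles in all, 1 per genotype and mark, for each of which the labels list 1 ChIP library and 1 input library. The methods mention biological replicates, but whether any were pooled into these libraries is not stated. With 1 profile per genotype and mark no test of a genotype difference is possible, and the standard deviations given below describe the spread between overlapping windows of 1 profile and not an experimental error.

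Pericentric heterochromatin surrounds the centromeres and consists largely of satellite repeats and transposons. In polytene chromosomes of salivary glands it is under-replicated and gathers in the chromocenter. Methyl groups on lysine 27 of histone H3 are added by E(z), the catalytic subunit of Polycomb repressive complex PRC2. The trimethylated form is best known from Polycomb domains over silenced developmental genes, while the dimethylated form covers much of the inactive genome. SUUR travels with replication forks, and loss of its gene suppresses under-replication. The deposited value is log2(ChIP/input), quantile normalized between genotypes for each antibody. Before that normalization a value of 0 means equal shares in ChIP and input, a level that the normalization can shift, and the difference is given as *SuUR* mutants minus wild type, so that a negative number stands for a lower level in the mutants. DNA of these scaffolds can differ in copy number between the genotypes; the ratio divides by input, and copy number itself was not analysed here. Levels of the marks come from different antibodies and were not subtracted from each other.

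The windows of these scaffolds are less smooth than those of the arms, and this touches every local value below. Between neighbouring windows the median step was 0.055 to 0.065 on 3LHet and 0.0825 to 0.095 on 3RHet over the 4 profiles, and 0.045 to 0.055 on arms 3L and 3R. Steps of 0.5 or more made up 1.63 to 3.05% of all steps on 3LHet and 4.24 to 7.69% on 3RHet, but at most 0.27% on either arm. The largest step was 2.51, from 1065000 to 1070000 on 3RHet in the wild type H3K27me2 profile. Some windows have no value: 3 on 3LHet and 18 on 3RHet for H3K27me3, and 7 and 21 for H3K27me2, with the longest H3K27me3 gap between 450000 and 515000 on 3RHet. Certain exact values also came back again and again. A level of -0.325 stood in 23 of the 498 3LHet windows and 26 of the 476 3RHet windows of the H3K27me3 profile of *SuUR* mutants, whereas the 10 neighbouring values were found in a mean of 3.00 and 1.80 windows. In wild type a level of 0.360 or 0.365 stood in 13 and 32 windows. Read numbers per window are unknown, and the part of low coverage in these jumps and ties was not tested. Results are therefore also given without the windows that share sequence with either side of a gap or of a step of 0.5 or more in the same mark, a rule chosen after seeing the data. This left 367 of 498 windows on 3LHet but only 194 of 476 on 3RHet for H3K27me3, and 343 of 494 and 169 of 473 for H3K27me2.

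H3K27me3 lay above 0 across most of both scaffolds in wild type and below 0 across most of both in *SuUR* mutants. On 3LHet the median level was 0.195 in wild type (range -1.15 to 1.56) and -0.215 in *SuUR* mutants (range -1.48 to 1.35). On 3RHet it was 0.295 in wild type (range -1.08 to 2.32) and -0.325 in *SuUR* mutants (range -3.02 to 1.25). The share of windows at or above 0 was 72.1% for wild type against 12.4% for *SuUR* mutants on 3LHet, and 74.8% and 18.5% on 3RHet. The ranges of the genotypes overlapped on each scaffold, while the difference was below 0 in 404 of 498 windows (81.1%) of 3LHet and in 424 of 476 (89.1%) of 3RHet. Its median was -0.44 (SD over windows 0.54) on 3LHet and -0.55 (SD 0.72) on 3RHet. Ranked among all windows of the genome, the median window of 3LHet stood at percentile 81.3 in wild type and 29.3 in *SuUR* mutants, and that of 3RHet at 86.0 and 15.6.

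**Figure D1:**
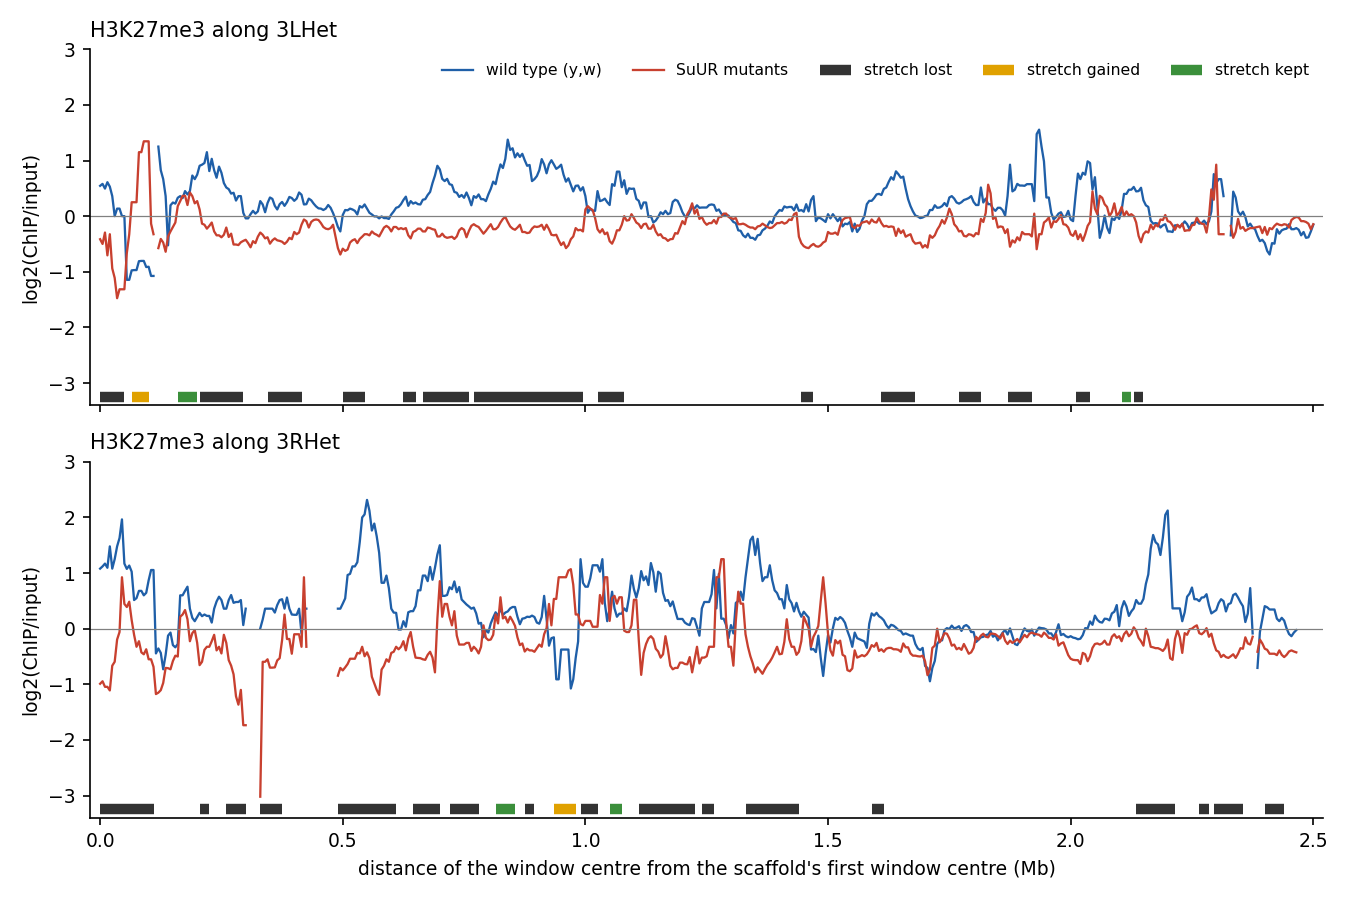
H3K27me3 level, as log2(ChIP/input), of each 50-kb window along 3LHet (top) and 3RHet (bottom) in wild type (blue) and *SuUR* mutants (red), against the distance from the first window centre in Mb; bars at the bottom mark stretches of at least 5 windows that lost, gained or kept the mark, and breaks in the lines are windows with no value. The red line lies below the blue one over most of both scaffolds, with 31 lost stretches against 2 gained ones, and the lines run close together over the long low run near the right of 3RHet.

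A window was counted as lower or higher in *SuUR* mutants when its difference reached 0.5, which is a 1.41-fold change of the ratio. H3K27me3 was lower in 225 windows of 3LHet (45.2%) and 251 of 3RHet (52.7%), against 8.32% of all windows in the genome. It was higher in 13 windows (2.61%) and 19 windows (3.99%), against 5.16% genome-wide. The scaffold 2RHet, which holds heterochromatin of another arm, gave a similar picture with 42.3% of 610 windows lower and a median difference of -0.385. On the arms themselves H3K27me3 was lower in 3.78% of the windows of 3L and 0.25% of those of 3R, and the median differences were 0.065 and 0.09. Quantile normalization forces both genotypes to 1 distribution, so a fall on some windows has to be matched by a rise on others. The median difference on arms 2L, 2R, 3L, 3R and X was 0.075 for H3K27me3 and -0.005 for H3K27me2, and set against the arms the H3K27me3 medians of the scaffolds became -0.515 and -0.63.

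**Figure D2:**
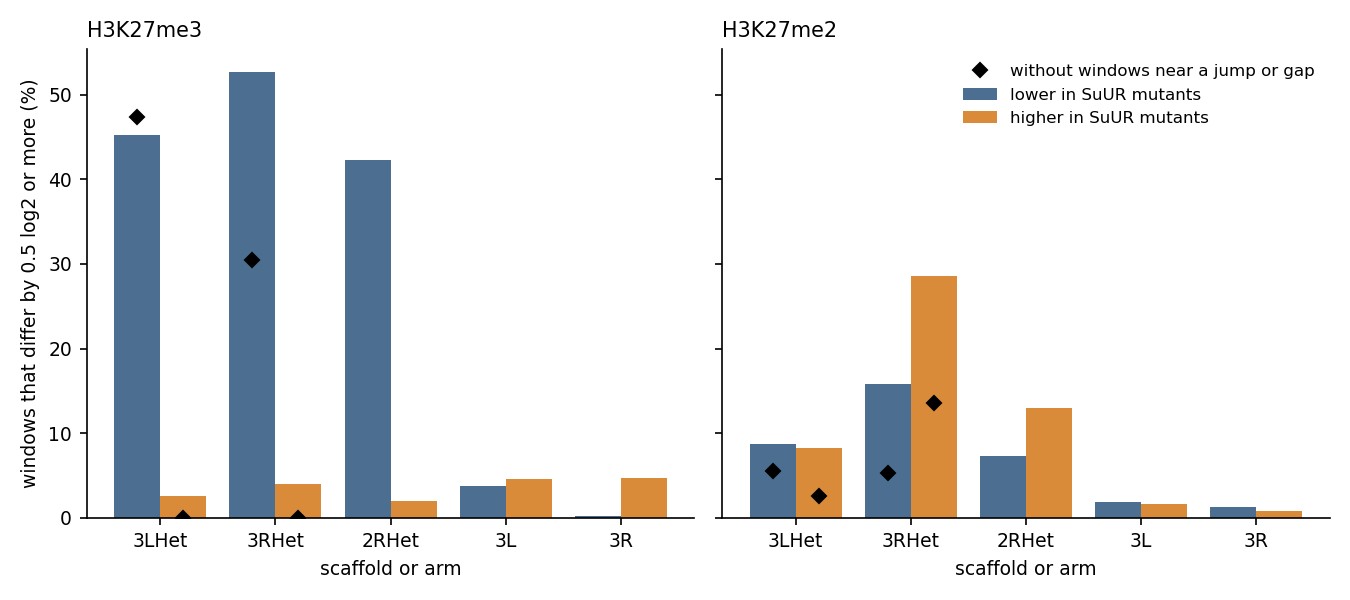
Share of windows (%) in which H3K27me3 (left) or H3K27me2 (right) was lower (blue) or higher (orange) in *SuUR* mutants by 0.5 or more on the log2 scale, on the chromosome 3 scaffolds, on 2RHet and on arms 3L and 3R; diamonds give the share without windows near a jump or a gap. For H3K27me3 the lower share is 45.2% on 3LHet, 52.7% on 3RHet and 42.3% on 2RHet, while it stays under 4% on both arms; the diamonds put 3RHet (30.4%) below 3LHet (47.4%).

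The order of the scaffolds depended on the uneven windows. Over all windows the H3K27me3 fall had the larger median on 3RHet. Without windows near a jump or a gap the median difference was -0.465 on 3LHet (0.195 in wild type and -0.215 in *SuUR* mutants) and -0.375 on 3RHet (0.06 and -0.285), and the share of lower windows was 47.4% and 30.4%. No window was then higher in *SuUR* mutants on either scaffold. The rule removes short stretches of strong change by its construction, since such a stretch begins and ends with a jump. The fall on 3LHet was thus as large in the even windows as in all of them, whereas on 3RHet it was smaller there.

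The fall was unevenly spread along both scaffolds. In 250-kb parts of 3LHet the median difference went from -0.97 in the part with centres 750000 to 995000, where 49 of 50 windows were lower, to 0.035 in the last part from 2250000, where 5 of 54 were. In the former the wild type level was the highest of the scaffold, with a median of 0.73, and in the latter it was -0.185, equal to about the level of *SuUR* mutants (-0.175). On 3RHet the part from 510000 to 745000 had the lowest median difference, -1.33 (0.825 in wild type and -0.52 in *SuUR* mutants), and 38 of its 47 windows were lower. The part from 1750000 to 1995000 had the smallest, -0.07 (-0.06 and -0.165), and none of its 50 windows was lower or higher. The medians of *SuUR* mutants lay between -0.36 and -0.105 in the 10 parts of 3LHet, and those of wild type between -0.185 and 0.73, so that the parts differed less from each other in the mutants.

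**Figure D3:**
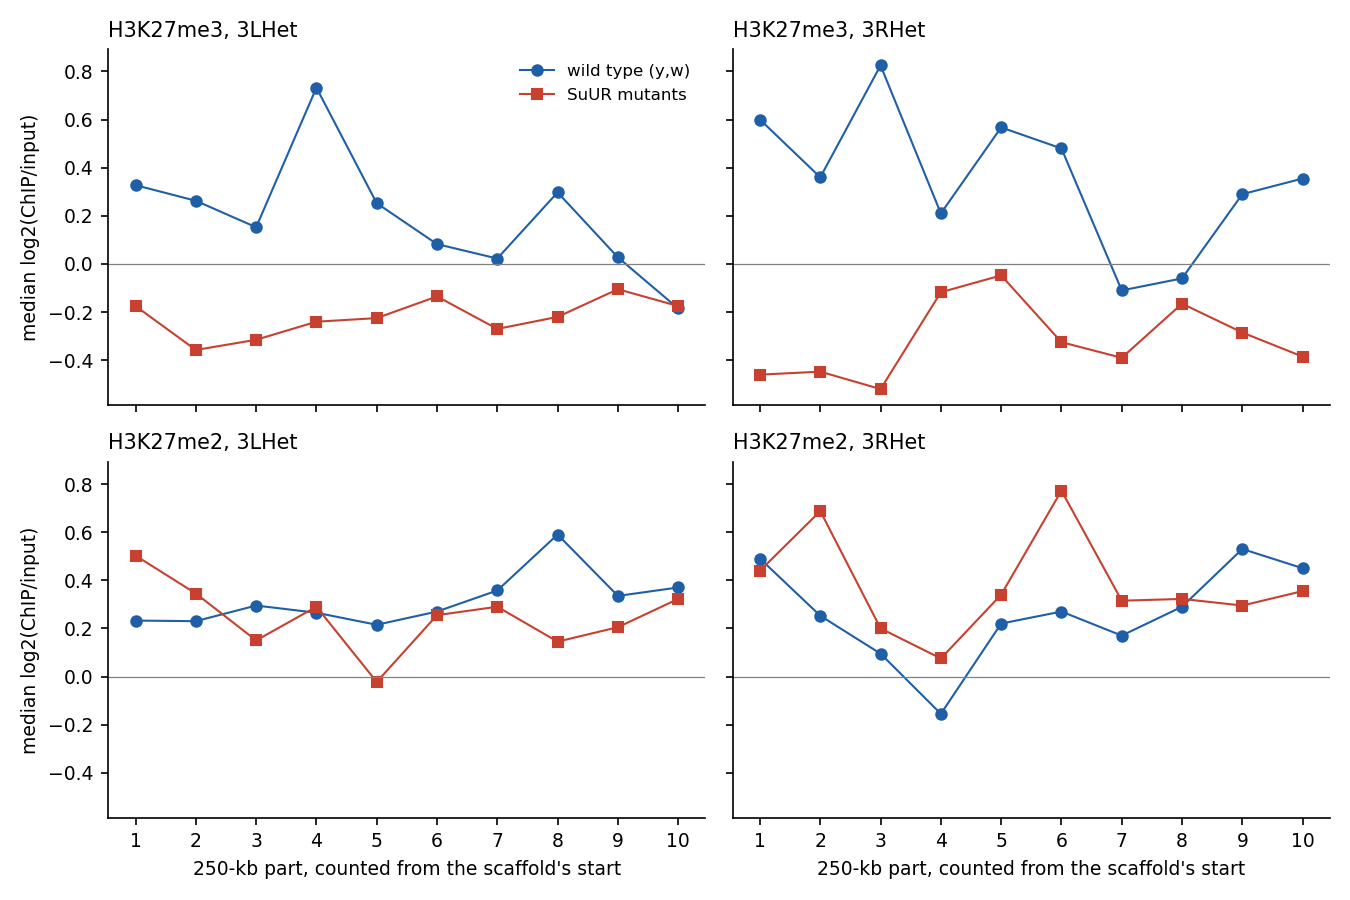
Median log2(ChIP/input) of H3K27me3 (top) and H3K27me2 (bottom) in consecutive 250-kb parts of 3LHet (left) and 3RHet (right), numbered from the scaffold's start, in wild type (blue circles) and *SuUR* mutants (red squares); each point is the median of 34 to 54 overlapping windows of 1 profile. H3K27me3 separates in most parts, by up to -1.33 in part 3 of 3RHet, and comes closest in part 10 of 3LHet and part 8 of 3RHet; the H3K27me2 medians cross several times.

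Stretches were defined as runs of at least 5 windows of 1 kind. A window had lost a mark when its level was at least 0 in wild type and fell by 0.5 or more. It had gained the mark when the level was at least 0 in *SuUR* mutants and rose by 0.5 or more, and had kept it when both levels were at least 0 and the difference was smaller. H3K27me3 was lost in 223 windows of 3LHet (44.8%) and 242 of 3RHet (50.8%), against 7.92% of all windows in the genome. It was gained in 10 (2.01%) and 19 (3.99%), against 4.23%. It was kept in 41 (8.23%) and 39 (8.19%), against 20.0%. The remaining 224 and 176 windows were below 0 in at least 1 genotype without meeting these rules. There were 14 stretches of loss on 3LHet with 193 windows, and 17 on 3RHet with 213.

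The longest stretch of loss ran from 795000 to 1020000 on 3LHet, with 46 windows over 275 kb. The H3K27me3 level there was 0.27 to 1.38 in wild type (mean 0.76) and -0.57 to -0.02 in *SuUR* mutants (mean -0.25), so the genotypes did not overlap, and the mean difference was -1.01. None of its windows was near a jump or a gap. The stretch from 690000 to 785000, just before it, had 20 windows with a mean of 0.51 in wild type and -0.31 in *SuUR* mutants. That from 230000 to 320000 had 19 windows with means of 0.65 and -0.30. All windows of both were also away from jumps and gaps, so the 3 longest losses of 3LHet all lay in even parts of the profiles.

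On 3RHet the longest loss had fewer windows than that of 3LHet and a lower mean difference. From 515000 to 635000 (25 windows, 170 kb) the H3K27me3 level was 0.28 to 2.32 in wild type (mean 1.12) and -1.19 to -0.32 in *SuUR* mutants (mean -0.63), with a mean difference of -1.75. This stretch begins at the edge of the longest gap, and none of its windows passed the rule on jumps and gaps. From 1135000 to 1250000 (24 windows) the means were 0.55 and -0.48, and 11 windows passed that rule. From 25000 to 135000 (23 windows) the means were 1.06 and -0.35, and a run from 1355000 to 1465000 of the same length had means of 0.86 and -0.46. In the former 0 windows passed the rule, in the latter 7. Of all 31 lost stretches, 21 kept at least 1 window under it.

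Gains of H3K27me3 were few. On 3LHet the only stretch ran from 90000 to 125000 (8 windows), where the level spanned -0.98 to -0.80 in wild type and 0.25 to 1.34 in *SuUR* mutants, with a mean difference of 1.78. On 3RHet it ran from 960000 to 1005000 (10 windows), with -1.08 to -0.16 in wild type and 0.26 to 1.07 in *SuUR* mutants and a mean difference of 1.39. The genotypes were apart in both, but all 18 windows lay near a jump or a gap. Just after the stretch on 3LHet, from 125000 to 130000, the level of *SuUR* mutants stepped by 1.48.

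Stretches that kept H3K27me3 were also rare and weak. On 3LHet they ran from 185000 to 225000 (9 windows, mean 0.49 in wild type and 0.30 in *SuUR* mutants) and from 2130000 to 2150000 (5 windows, 0.37 and 0.06). On 3RHet they ran from 840000 to 880000 (9 windows, 0.32 and 0.20) and from 1075000 to 1100000 (6 windows, 0.36 and 0.48). Away from jumps and gaps were 2 of 9 and 4 of 5 windows of the 3LHet stretches, and 9 of 9 and 0 of 6 on 3RHet. These stretches hold 14 windows of 3LHet and 15 of 3RHet. The longest run that was neither lost, gained nor kept was on 3RHet, from 1645000 to 2055000 with 83 windows over 460 kb, where wild type had a mean of -0.13 and *SuUR* mutants of -0.29.

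Single windows at the extremes were read with care. The highest H3K27me3 level in wild type was 2.32 at 575000 on 3RHet, where *SuUR* mutants had -0.425, and on 3LHet it was 1.56 at 1960000 with -0.325 in the mutants, a value that recurs. The largest fall on 3LHet was next to it at 1955000, from 1.48 to -0.595, and on 3RHet at 355000, from 0.005 to -3.02. The latter window stands at the edge of a gap, and the level of *SuUR* mutants changed by 2.43 from there to the next window, so it rests on a single position. The largest rises were at 120000 on 3LHet, from -0.915 to 1.35, and at 995000 on 3RHet, from -1.08 to 1.07, both within the gained stretches.

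The scaffold medians of H3K27me2 did not show a fall of the size seen for H3K27me3, and the marks are compared window by window further below. On 3LHet the median H3K27me2 level was 0.325 in wild type (range -2.13 to 1.76) and 0.255 in *SuUR* mutants (range -0.465 to 1.31), and on 3RHet it was 0.25 (range -2.26 to 2.31) and 0.315 (range -1.83 to 2.76). The median difference was -0.025 (SD over windows 0.46) on 3LHet and 0.105 (SD 0.80) on 3RHet, and its sign changed between sets of windows that do not overlap on both scaffolds. Windows at or above 0 numbered 441 in wild type and 434 in *SuUR* mutants of 494 on 3LHet, and 350 and 368 of 473 on 3RHet. The median window stood at percentile 89.3 in wild type and 83.5 in *SuUR* mutants on 3LHet, and at 82.9 and 88.7 on 3RHet. Both genotypes therefore held H3K27me2 above the genome's middle on both scaffolds.

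**Figure D4:**
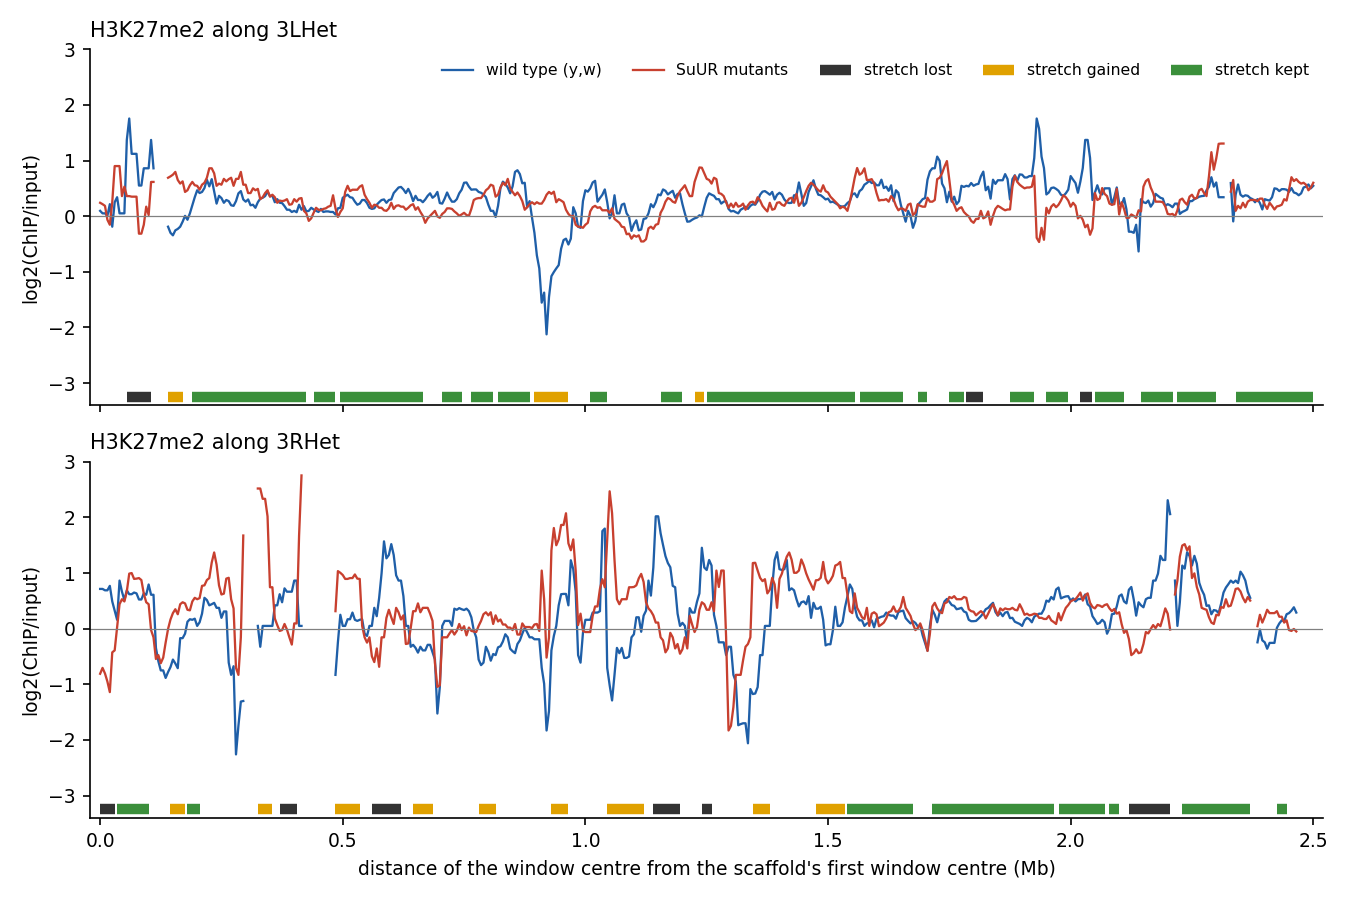
H3K27me2 level, as log2(ChIP/input), of each 50-kb window along 3LHet (top) and 3RHet (bottom) in wild type (blue) and *SuUR* mutants (red), against the distance from the first window centre in Mb, with bars for lost, gained and kept stretches as for H3K27me3. On 3LHet the lines stay close over 18 kept stretches and part elsewhere, among others in 3 lost and 3 gained stretches. The longest gained one holds a trough to -2.13 in wild type only. On 3RHet the lines part in both directions over its left side. On its right they run closer together from centres 1565000 to 2125000, and part again in the longest lost stretch, from 2145000 to 2230000.

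H3K27me2 was lower in 43 windows of 3LHet (8.70%) and 75 of 3RHet (15.9%), against 3.53% of all windows in the genome. It was higher in 41 (8.30%) and 135 (28.5%), against 3.95%. On 2RHet 7.25% were lower and 13.0% higher, and on 3L and 3R no more than 1.84% either way. Without windows near a jump or a gap, 5.54% were lower and 2.62% higher on 3LHet, and 5.33% and 13.6% on 3RHet. The excess of higher over lower windows on 3RHet was still there in those windows, at a smaller share.

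The scaffolds also differed in how much H3K27me2 was kept. On 3LHet it was kept in 360 windows (72.9%), and 335 of them formed 18 stretches. On 3RHet it was kept in 198 (41.9%), and 158 formed 8 stretches. The share kept was 36.1% over all windows in the genome, nearer to that of 3RHet, and 64.1% on 2RHet. Away from jumps and gaps the shares of 3LHet and 3RHet were closer, with 280 of 343 windows (81.6%) on the former and 116 of 169 (68.6%) on the latter. The longest kept stretch of 3LHet ran from 1275000 to 1580000 (62 windows, 355 kb) with a mean level of 0.30 in wild type and 0.32 in *SuUR* mutants. Stretches from 215000 to 450000 (48 windows, 0.29 and 0.47) and from 520000 to 690000 (35 windows, 0.31 and 0.24) came next. None of the windows in these 3 stretches was near a jump or a gap. Mean H3K27me3 in the same windows went from -0.04 to -0.20, from 0.41 to -0.31 and from 0.11 to -0.34, so the 48 windows of the second stretch kept H3K27me2 while H3K27me3 dropped by 0.72 on the log2 scale.

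On 3RHet the longest kept H3K27me2 stretch ran from 1740000 to 1990000 (51 windows, 300 kb) with 0.29 in wild type and 0.34 in *SuUR* mutants, all away from jumps and gaps. It lies inside the long run in which H3K27me3 was low in both genotypes. Those from 2255000 to 2395000 (29 windows, 0.78 and 0.62) and from 1565000 to 1700000 (28 windows, 0.25 and 0.29) followed. Away from jumps and gaps in H3K27me2 were 5 of 29 windows of the former and 28 of 28 of the latter. In the stretch from 2255000 H3K27me3 went from 0.47 to -0.26 in the same windows. Of the 8 kept stretches of 3RHet 6 began after 1560000, while all 9 gained stretches described next ended at or before it.

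H3K27me2 was gained in 3 stretches of 3LHet and 9 of 3RHet. On 3LHet the longest ran from 920000 to 990000 (15 windows), where wild type had -2.13 to -0.30 and *SuUR* mutants 0.04 to 0.44, a mean difference of 1.23. The window at 945000 in it had both the lowest wild type level of the scaffold and the largest rise. The other gains of 3LHet ran from 165000 to 195000 (7 windows, -0.23 and 0.69) and from 1250000 to 1270000 (5 windows, 0.02 and 0.78). On 3RHet the longest ran from 1070000 to 1145000 (16 windows), with -1.29 to 0.24 in wild type and 0.44 to 2.47 in *SuUR* mutants. The largest rise of either mark was in it, at 1075000, from -1.02 to 2.47. From 1500000 to 1560000 (13 windows) the level spanned -0.30 to 0.40 in wild type and 0.82 to 1.20 in *SuUR* mutants, and from 510000 to 560000 (11 windows) the means were 0.03 and 0.88. Of these 6 stretches the one from 1250000 on 3LHet and the one from 1500000 on 3RHet lay wholly away from jumps and gaps, and 0 windows of the others did. Among all 12 gained stretches 3 had such windows, the third being 3RHet from 805000 to 840000 with means of -0.51 and 0.20.

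Losses of H3K27me2 were short. The longest was on 3RHet from 2145000 to 2230000 (18 windows), where wild type had 0.24 to 2.31 and *SuUR* mutants -0.48 to 0.36, and it ends with the largest H3K27me2 fall of that scaffold at 2230000, from 2.06 to -0.015, beside a gap. Losses from 585000 to 645000 (13 windows, means 0.92 and -0.06) and from 1165000 to 1220000 (12 windows, 1.15 and -0.17) followed. On 3LHet the losses ran from 80000 to 130000 (11 windows, 1.05 and 0.16), from 1810000 to 1845000 (8 windows, 0.61 and -0.03) and from 2045000 to 2070000 (6 windows, 0.93 and -0.16). The largest H3K27me2 fall of 3LHet, at 1955000 from 1.76 to -0.39, was in the same window as its largest H3K27me3 fall. Of the 9 lost stretches 2 held windows away from jumps and gaps, 8 of 8 in the one from 1810000 and 6 of 18 in the one from 2145000.

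Both marks had a value in 494 windows of 3LHet and 471 of 3RHet. H3K27me3 alone was lower in 176 windows of 3LHet (35.6%) and 118 of 3RHet (25.1%). Both marks were lower in 22 windows of 3LHet (4.45%) and 63 of 3RHet (13.4%), and H3K27me3 was lower while H3K27me2 was higher in 23 (4.66%) and 67 (14.2%). Among windows with less H3K27me3, near jumps and gaps or not, H3K27me2 was thus higher about as often as it was lower on each scaffold. On 3RHet this differs from the other windows: H3K27me2 was lower in 25.4% of the 248 windows with less H3K27me3 but in 5.38% of the remaining 223, and higher in 67 and 66 of them. On 3LHet it was lower in 9.95% of 221 and 7.69% of 273, and higher in 10.4% and 6.59%. Windows away from jumps and gaps in both marks were also compared. Of the 27 such 3RHet windows with less H3K27me3, H3K27me2 was lower in 5 and higher in 1. In the other 125 it was lower in 4 and higher in 9. On 3LHet it was lower in 5 and higher in 0 of 141, and lower in 2 and higher in 9 of the other 175. The near balance was thus not seen in these windows, though few of them changed in H3K27me2. Over windows that do not overlap, the differences of the marks had a median r of 0.27 on 3RHet (range over the starts -0.10 to 0.41) and -0.165 on 3LHet (-0.39 to 0.05), given as a description. Both marks were higher in 0 windows of 3LHet and 16 of 3RHet, and H3K27me3 was higher while H3K27me2 was lower in 10 and 0. In 231 windows (46.8%) and 143 windows (30.4%) neither mark changed by 0.5.

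**Figure D5:**
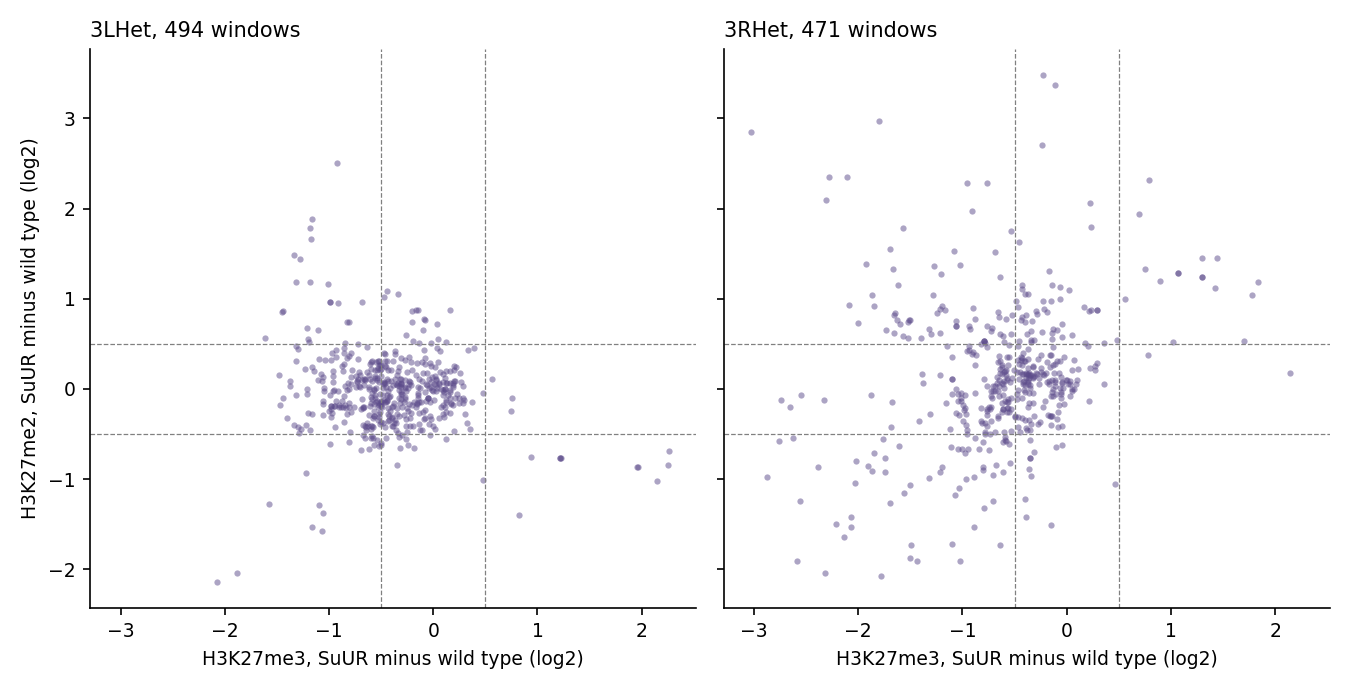
Difference of H3K27me2 (vertical axis) against that of H3K27me3 (horizontal axis), both *SuUR* mutants minus wild type on the log2 scale, for the 494 windows of 3LHet (left) and the 471 of 3RHet (right) with both marks; each point is 1 window and dashed lines stand at -0.5 and 0.5. On 3LHet most points spread to the left at an H3K27me2 difference near 0; on 3RHet the points with a fall of H3K27me3 also reach far up and down, with 67 windows in the upper left and 63 in the lower left field.

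The longest runs in which the marks moved the same way or opposite ways are given next. They cannot share windows, since each window is of 1 kind only. Both marks were lower over 15 windows of 3RHet from 2160000 to 2230000, where H3K27me3 went from a mean of 1.22 to -0.27 and H3K27me2 from 0.935 to -0.04. On 3LHet the longest such run had 7 windows from 1810000 to 1840000, with H3K27me3 from 0.31 to -0.30 and H3K27me2 from 0.58 to -0.03. H3K27me3 was lower and H3K27me2 higher over 15 windows of 3LHet from 920000 to 990000 (0.83 to -0.33, and -0.95 to 0.27) and over 11 windows of 3RHet from 1355000 to 1405000 (1.22 to -0.60, and -0.82 to 0.605). The reverse was found on 3LHet from 85000 to 130000 over 10 windows, with H3K27me3 from -0.94 to 0.66 and H3K27me2 from 1.02 to 0.14. Both marks were higher over 7 windows of 3RHet from 960000 to 990000, where H3K27me3 went from -0.50 to 0.83 and H3K27me2 from 0.38 to 1.75. In H3K27me2, 0 windows of these last runs, from 85000 on 3LHet and from 960000 on 3RHet, were away from jumps and gaps. The same holds for the gain of H3K27me2 from 1370000 to 1405000 within the 3RHet run from 1355000, with 0 of 8 windows. The run from 920000 to 990000 lies inside the longest H3K27me3 loss of 3LHet: its fall of H3K27me3 is in even windows, while its rise of H3K27me2 is not.

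The shape of the profiles carried over poorly between genotypes. Over windows that do not overlap, the correlation of H3K27me3 between wild type and *SuUR* mutants had a median r of -0.24 on 3LHet (49 to 51 windows, range over the 10 possible starts -0.37 to 0.06) and -0.11 on 3RHet (46 to 49 windows, -0.28 to 0.075). On arms 3L and 3R the same measure gave 0.62 and 0.86. For H3K27me2 it was 0.07 on 3LHet and 0.165 on 3RHet, and 0.52 and 0.545 on the arms. On 2RHet it was 0.09 for H3K27me2, between these values of the chromosome 3 scaffolds, and 0.29 (-0.12 to 0.41) for H3K27me3. Likeness between genotypes was thus lower than on arms 3L and 3R for both marks on 3LHet, 3RHet and 2RHet, though for H3K27me3 the median r of 2RHet was above those of 3LHet and 3RHet. These correlations describe windows of 1 pair of libraries each and carry no test.

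The study listed regions that lose H3K27me3 on *SuUR* mutation (SSRs). It took them from ChIP-chip profiles of salivary glands published earlier, made with another H3K27me3 antibody, and 1 such region lies on each scaffold. On 3LHet 450 of the 498 H3K27me3 windows had their centre inside the SSR, with a median difference of -0.46 (0.20 in wild type and -0.215 in *SuUR* mutants), against -0.0075 in the 48 windows outside it (SD 1.07). The windows outside fall into 38 before the SSR, where 15 were lower and 11 higher, and 10 after it, where none was either. Only 10 windows outside were away from jumps and gaps, with a median difference of 0.20, against -0.48 in 357 inside. When whole windows were counted, the median was -0.12 outside and -0.44 before the SSR, against -0.46 inside, so this contrast too rests mainly on uneven windows. On 3RHet 330 windows lay inside with a median difference of -0.41, and 146 lay outside, all before the SSR. There the median difference was -0.815 (wild type 0.50, *SuUR* mutants -0.425) and 111 windows (76.0%) were lower, against 140 (42.4%) inside. Over all windows of 3RHet the H3K27me3 fall was thus larger outside the listed region than in it. Most of that outer part lies near jumps or gaps, however: 21 of its 146 windows were away from them, with a median difference of -0.47, against -0.365 in 173 windows inside, so the comparison rests mainly on uneven windows. The median H3K27me2 difference was -0.04 inside and 0.17 outside on 3LHet, and 0.09 and 0.265 on 3RHet. No region listed as under-replicated, and none listed as keeping H3K27me3 without SUUR, lies on these scaffolds. The study also measured under-replicated loci of pericentric heterochromatin by qPCR, so absence from the list is no measure of full replication.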

How the data were processed

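The ChIP-seq profiles of larval salivary glands were used, 4 profiles from 8 libraries. The 12 embryo libraries were not analysed here. The authors mapped paired reads to BDGP R5/dm3 with MOSAIK, scaled reads to library size and deposited log2 values of the ChIP/input ratio, in windows of 50 kb moved by 5 kb. The methods describe narrower smoothing, and the file labels mark quantile normalization. This was checked by sorting each profile: per antibody, wild type and *SuUR* values then matched with a largest difference of 0. How reads with several matching positions were weighed bears on repeats and was not tested. Whether libraries were pooled is not stated. Read numbers are unknown, so no interval is given.

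Windows with column values for 3LHet or 3RHet were taken in full with Python 3.11.15, numpy 2.4.6, pandas 2.3.3 and matplotlib 3.10.9. The threshold was 0.5 on the log2 scale, a stretch needed 5 windows, and the run finder was checked on simulated data. Named regions were the 3 longest lost, gained and kept stretches per scaffold and mark, the extreme windows, and the longest runs in which both marks changed; a run of equal length or one that bears on a comparison was added after its values were seen. Members, lists and rules were chosen with earlier results of these data known. Alternatives were windows without overlap (10 starts), centring on the arms, percentile ranks, the mean, ends left out (10 windows), thresholds of 0.25 and 1, runs of 10 windows and whole windows for SSRs. Leaving out recurring values, and windows near jumps or gaps, was added after seeing the data. The study's SSR list was used for positions only. No test was run, and no gene or sequence is given, since no genome of this build was used here.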

Additional observations from a re-analysis of the deposited data

How the results depend on the processing

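The medians of the H3K27me3 difference on both scaffolds kept their direction and stayed within 1.5 times under every alternative tried: windows without overlap, centring on the arms, percentile ranks (direction only), the mean, ends left out, recurring values left out, and windows near jumps or gaps left out. For H3K27me2 the median ranged from -0.105 to 0.025 on 3LHet and from -0.0125 to 0.2225 on 3RHet over the 10 starts of windows without overlap, so its direction depends on which windows are taken. Of 104 alternative values 39 moved by more than the limits set, and 65 did not. Whole windows took the H3K27me2 difference inside minus outside the SSR of 3LHet from -0.21 to -0.0925; fewer windows were counted.

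At a threshold of 1, H3K27me3 was lower in 62 windows of 3LHet and 106 of 3RHet and higher in 8 and 12. H3K27me2 was lower in 10 and 28 and higher in 12 and 51. At 0.25, H3K27me3 was higher in 28 windows of 3LHet, and H3K27me2 was lower in 126 and 124 windows of the scaffolds and higher in 94 of 3LHet. Stretches of H3K27me3 loss numbered 12 at a threshold of 1 and 19 with at least 10 windows, and of its gain 1 with at least 10 windows. Stretches of H3K27me2 loss numbered 20 at 0.25, 2 at 1 and 4 with at least 10 windows, and of its gain 20, 4 and 4.

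Over windows without overlap, H3K27me3 was higher in up to 6.0% on 3LHet and in 2.04 to 6.38% on 3RHet. H3K27me2 was lower in as few as 4.17% and higher in as few as 4.17% on 3LHet, and lower in as few as 10.4% on 3RHet. Without windows near a jump or a gap, H3K27me3 was lower in 30.4% on 3RHet and higher in 0% on both scaffolds. H3K27me2 was then lower in 5.54% and 5.33% and higher in 2.62% and 13.6% on 3LHet and 3RHet.

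No paired analysis was possible because each genotype and mark has 1 profile here. Depth is unknown, so how far single windows of these scaffolds can be trusted cannot be calculated.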
